A study of Homo sapiens with 6 samples.

Results

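The KLF transcription factors are DNA-binding proteins named for the Drosophila segmentation gene Krüppel. 10 of their genes were followed here: KLF2, KLF3, KLF4, KLF5, KLF6, KLF7, KLF9, KLF10, KLF11 and KLF13. They were taken by gene symbol from a table of 29710 genes, 16515 of which held enough reads to be tested, and all 10 were among the tested genes. The list was drawn up with the levels and the differences of these same libraries known. What follows on the members is therefore a description, and no call among them supports a statement about the family. Level alone does not separate the members from the rest of the family: KLF16, which is no member, averaged 48.3 CPM with SRPK2 and 52.9 CPM with the empty vector, above 7 of the 10 members. CPM is the read count scaled to library size, here with TMM factors.

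The libraries came from MDA-MB-231, an established triple-negative breast cancer cell line. One group overexpressed FLAG-tagged SRPK2, a kinase of the serine- and arginine-rich splicing factors, and the other carried an empty vector. Each group had 3 biological replicates, and the sequencing was strand-specific and paired-end. The promoter of the construct, the time of harvest and whether the cells were a pool or a clone are stated in no source used here. The libraries held between 31140537 and 36908878 reads assigned to genes. SRPK2 mRNA was at 213, 248 and 294 CPM in the SRPK2 libraries, against 37.8, 36.7 and 41.1 CPM with the empty vector (log2 fold change 2.71, SE 0.10). The line's mesenchymal markers VIM and CD44 averaged 3430 and 1055 CPM with SRPK2 and 3615 and 1065 CPM with the empty vector. The oestrogen and progesterone receptor genes ESR1 and PGR had at most 2 and 4 reads in a library.

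KLF proteins share C-terminal zinc fingers that bind CACCC and GC-rich elements, which the related SP factors bind as well. They differ in the rest of the protein. KLF2, KLF4, KLF5, KLF6 and KLF7 act mostly as activators, KLF3 represses through the corepressor CtBP, and KLF9, KLF10, KLF11 and KLF13 carry a segment that recruits the SIN3A and histone deacetylase complex. In breast epithelium KLF4 is known for differentiation and growth arrest, and KLF5 for proliferation of basal-type cancer cells. Many family members answer quickly to serum, shear stress, TGF-beta or steroid hormones.

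Stretches before annotated starts of KLF transcripts are shown because most hold the GC box that the family itself binds. In RefSeq promoter windows (GRCh38.p14), 8 of the 10 members had 13 windows of 250 bases before an annotated start, several inside the gene. Their median GC content was 70.8%, against 58.0% over all 35116 windows. The GC box GGGCGG, searched on both strands, was in 8 of the 13 member windows, belonging to 7 genes, and in 42.6% of all windows. CACCC, searched on both strands, was in 6 of the 13 and in 54.7% of all windows. The 3 windows below carry no annotated UTR base. They are from KLF4, the member with a called difference, from KLF13, a GC-rich window of a member with none, and from KLF9, which is poor in GC. They lie at chr9:107489770-107490019 on the minus strand (KLF4), chr15:31326585-31326834 on the plus strand (KLF13) and chr9:70414658-70414907 on the minus strand (KLF9). The KLF4 window precedes a RefSeq start but lies inside the GENCODE 29 span of KLF4 (107484852 to 107490482). The KLF13 and KLF9 windows lie upstream of the spans of their genes. Capitals mark GGGCGG or CACCC on either strand.
KLF4: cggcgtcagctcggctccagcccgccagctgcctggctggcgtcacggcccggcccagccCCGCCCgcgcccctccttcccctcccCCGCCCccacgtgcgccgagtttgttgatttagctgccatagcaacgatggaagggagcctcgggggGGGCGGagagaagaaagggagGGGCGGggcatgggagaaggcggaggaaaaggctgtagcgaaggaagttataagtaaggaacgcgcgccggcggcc
KLF13: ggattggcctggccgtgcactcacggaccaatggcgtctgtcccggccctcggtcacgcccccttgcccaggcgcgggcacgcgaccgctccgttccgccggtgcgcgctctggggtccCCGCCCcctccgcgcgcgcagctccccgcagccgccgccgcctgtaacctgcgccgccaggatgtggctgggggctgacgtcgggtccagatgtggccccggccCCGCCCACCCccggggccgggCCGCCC
KLF9: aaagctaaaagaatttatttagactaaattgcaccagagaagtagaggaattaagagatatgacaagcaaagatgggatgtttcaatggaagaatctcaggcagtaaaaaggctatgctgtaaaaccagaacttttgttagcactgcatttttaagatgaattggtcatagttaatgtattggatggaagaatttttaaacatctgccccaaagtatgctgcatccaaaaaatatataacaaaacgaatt
The KLF4 window held 4 GC boxes and 0 CACCC. The KLF13 window held 3 GC boxes and 1 CACCC, which overlaps a GC box, and the KLF9 window held 0 of either, at 32.4% GC. A match is only a string of letters and no binding was measured.

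Per length of transcript, the members covered a wide range of levels. KLF6 stood highest at 29.7 ± 1.87 FPKM with SRPK2 and 26.7 ± 2.52 FPKM with the empty vector (SD, n = 3 each), on the authors' FPKM scale of fragments per kilobase of transcript and library size. KLF4 followed, at 19.7, 19.5 and 20.7 FPKM with SRPK2 and 16.9, 15.6 and 16.3 FPKM with the empty vector. KLF10 averaged 15.2 FPKM in both groups (SD 1.16 with SRPK2 and 0.79 with the empty vector, n = 3 each). These genes lay above 90.7%, 85.6% and 83.1% of the tested genes by mean FPKM. KLF5 came next with 9.66 ± 0.91 FPKM with SRPK2 and 9.21 ± 0.56 FPKM with the empty vector. KLF3, KLF2, KLF11, KLF13 and KLF9 followed with 6-library means of 4.59, 3.67, 3.53, 2.83 and 2.40 FPKM. KLF7 was lowest at 0.58 ± 0.04 FPKM with SRPK2 and 0.44 ± 0.025 FPKM with the empty vector, above 20.9% of the tested genes.

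Most steps of this order held in every library. The upper gene of each neighbouring pair was higher in 6 of 6 libraries, except for KLF2 over KLF11, which held in 4 of 6. Over all 6 libraries the ranges of KLF4 and KLF10, KLF3 and KLF2, KLF2 and KLF11, and KLF13 and KLF9 overlapped. KLF4 and KLF10 did not overlap among the SRPK2 libraries, where KLF4 lay between 19.5 and 20.7 FPKM and KLF10 between 14.1 and 16.4 FPKM. With the empty vector they did, KLF4 between 15.6 and 16.9 FPKM and KLF10 between 14.4 and 16.0 FPKM.

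**Figure D1:**
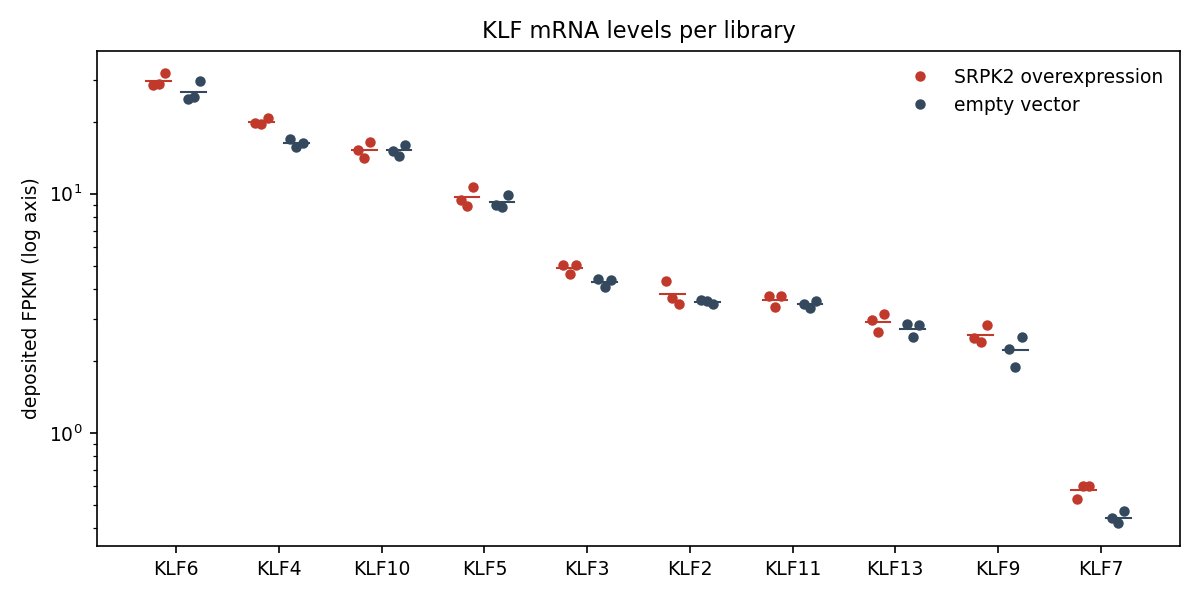
Deposited FPKM of the 10 KLF genes in each library, on a log axis, with SRPK2 libraries left of empty-vector libraries. Points are libraries, lines are group means (n = 3 each), and genes run from KLF6, the highest, to KLF7, the lowest; KLF3, KLF4 and KLF7 are the genes whose groups do not overlap.

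Between the groups, 1 of the 10 members passed in edgeR's quasi-likelihood test (p adjusted by Benjamini-Hochberg over all tested genes, threshold 0.05), where 0.454% of all tested genes did. That gene was KLF4, which was higher with SRPK2, as 0.381% of tested genes were. The log2 fold changes ran from -0.03 to 0.34, and 9 of the 10 were above 0, where 51.2% of tested genes were. Their median was 0.09, against 0.00 over all tested genes, and their median absolute value was 0.09, against 0.10 over all. For 3 members every SRPK2 library was above every empty-vector library, and for 0 every one was below. Over all tested genes these shares were 11.5% and 8.69%, or 20.1% in either direction. Because the members were chosen on this comparison, nothing is read from these counts. In bulk RNA, a change per cell and a change in the share of cells that express a gene cannot be told apart.

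KLF4 (ENSG00000136826.15, chromosome 9, 107484852 to 107490482, minus strand, here as for the other members in GRCh38 and GENCODE 29) encodes a factor of epithelial differentiation and of pluripotency reprogramming. Its level was 79.4, 78.9 and 80.7 CPM in the SRPK2 libraries and 69.2, 64.9 and 65.5 CPM in the empty-vector libraries. The groups did not overlap, and the coefficient of variation of the SRPK2 libraries was 1.13%, the smallest of any member in either group. The difference was 1.20-fold (log2 fold change 0.26, SE 0.05, edgeR adjusted p = 0.0467). By p, KLF4 ranked 68 among the 75 genes called, close to the threshold. Its estimate stayed between 0.24 and 0.30 under every setting run, and the call did not. Scaled with RLE size factors it had an edgeR adjusted p of 0.0513, and in limma fits on the deposited FPKM the adjusted p was 0.0608 to 0.179. Leaving out SRPK2 replicate 2 gave an edgeR adjusted p of 0.0175, and leaving out any of the other 5 libraries gave 0.133 to 0.191.

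**Figure D2:**
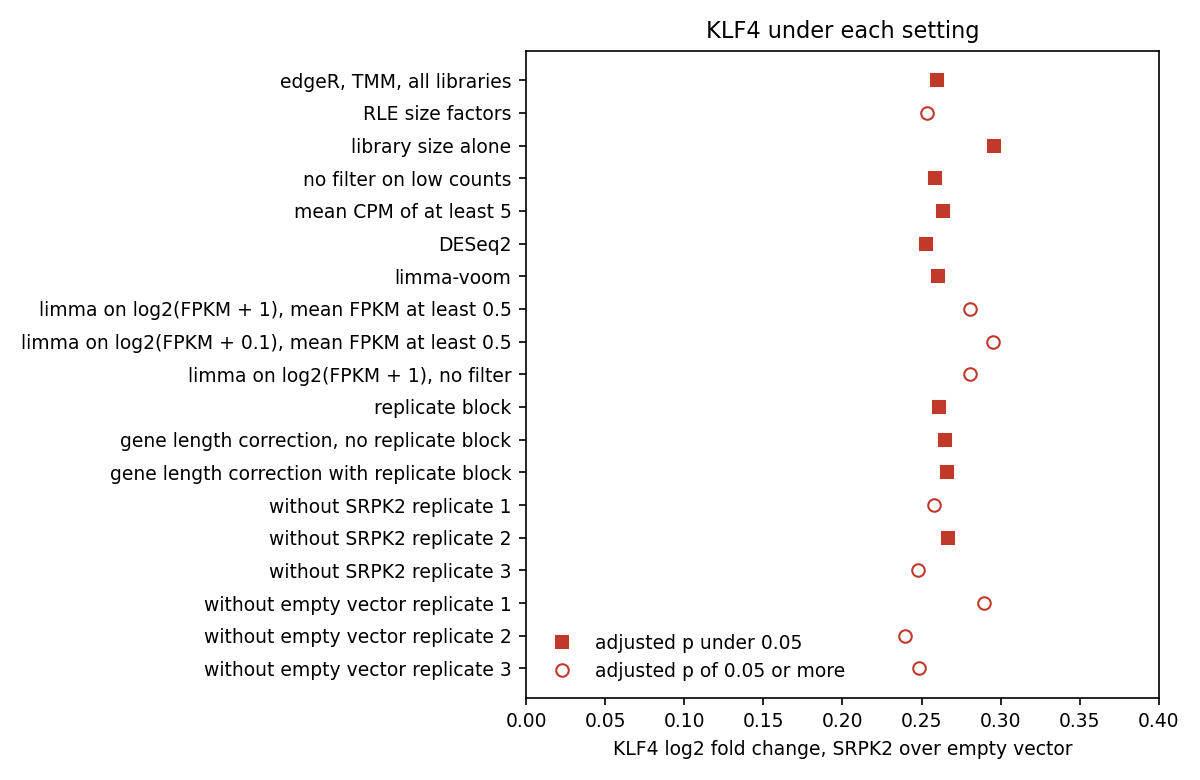
KLF4 log2 fold change (SRPK2 over empty vector) under each normalization, filter, tool, block and left-out library. Filled squares are settings with an adjusted p under 0.05, open circles those without; every estimate falls between 0.24 and 0.30.

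Ratios of read counts within a library do not depend on scaling between libraries. KLF4 had 1.24, 1.33 and 1.21 reads for each KLF10 read in the SRPK2 libraries, against 1.07, 1.04 and 0.98 with the empty vector. Its ratio to KLF5 was 2.08, 2.19 and 1.93 in the SRPK2 libraries, against 1.88, 1.76 and 1.65 with the empty vector. Neither ratio overlapped between the groups. The ratio to KLF6 did, at 0.41, 0.41 and 0.39 with SRPK2 and 0.40, 0.37 and 0.33 with the empty vector. So did the ratio to KLF2, at 5.96, 6.93 and 7.79 with SRPK2 and 6.13, 5.71 and 6.11 with the empty vector. Ratios to the remaining members were not computed. The share of all gene pairs whose ratios do not overlap between the groups was not computed either. The ratios are therefore given as a description only. KLF4 made up 21.0% to 22.1% of the summed FPKM of the 10 members with SRPK2 and 18.4% to 20.4% with the empty vector.

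The other activator-type members gave smaller or less certain differences. KLF7 (ENSG00000118263.15, chromosome 2, 207074137 to 207167267, minus strand), a factor of neuronal and fat cell development, had the largest estimate of the members. It was at 5.36, 6.15 and 5.92 CPM with SRPK2 and at 4.61, 4.37 and 4.81 CPM with the empty vector, without overlap. Its log2 fold change was 0.34 (SE 0.10, edgeR adjusted p = 0.165), on 142 to 227 reads a library. In limma on log2(FPKM + 1), a scale that understates differences of low genes, its estimate was 0.13. KLF6 (ENSG00000067082.15, chromosome 10, 3775996 to 3785281, minus strand) is a widely expressed tumour suppressor known for alternative splice forms, which gene totals do not separate. It was at 192, 195 and 208 CPM with SRPK2 and at 172, 177 and 199 CPM with the empty vector, so that the highest empty-vector library lay above 2 of the SRPK2 libraries. Its log2 fold change was 0.12 (SE 0.06, edgeR adjusted p = 0.337).

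KLF5 and KLF2 had overlapping groups. KLF5 (ENSG00000102554.14, chromosome 13, 73054976 to 73077542, plus strand) was at 38.2, 36.1 and 41.7 CPM with SRPK2 and at 36.9, 36.8 and 39.7 CPM with the empty vector. Its log2 fold change was 0.03 (SE 0.06, edgeR adjusted p = 0.811). KLF2 (ENSG00000127528.6, chromosome 19, 16324817 to 16327874, plus strand), a flow-induced factor of endothelium and of resting T cells, was at 13.3, 11.4 and 10.4 CPM with SRPK2 and at 11.3, 11.4 and 10.7 CPM with the empty vector. The SRPK2 libraries thus held both the highest and the lowest value, and their coefficient of variation of 12.9% was the widest of any member. The log2 fold change was 0.07 (SE 0.09, edgeR adjusted p = 0.732) with all libraries, and -0.04 without SRPK2 replicate 1.

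KLF3 (ENSG00000109787.13, chromosome 4, 38664196 to 38701042, plus strand) is the CtBP-dependent repressor of the set. It was at 37.5, 34.4 and 36.3 CPM with SRPK2 and at 33.3, 31.4 and 32.5 CPM with the empty vector, and the groups did not overlap. The log2 fold change was 0.16 (SE 0.06), and it did not pass the threshold (edgeR adjusted p = 0.217). The antisense gene KLF3-AS1, which overlaps it, had at most 3 reads in a library.

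Among the SIN3A-recruiting members 0 passed, where 0.454% of all tested genes did, and nothing is read from that count. KLF9 (ENSG00000119138.5, chromosome 9, 70384597 to 70414624, minus strand), a glucocorticoid- and thyroid hormone-induced repressor, was at 14.3, 13.8 and 15.7 CPM with SRPK2 and at 13.1, 11.1 and 14.3 CPM with the empty vector (log2 fold change 0.18, SE 0.09, edgeR adjusted p = 0.328). Empty-vector replicate 2 was the lowest library and replicate 3 reached into the SRPK2 range. KLF10 (ENSG00000155090.15, chromosome 8, 102648779 to 102655902, minus strand), an early TGF-beta-induced gene, was at 63.8, 59.4 and 66.6 CPM with SRPK2 and at 64.8, 62.4 and 66.9 CPM with the empty vector. Its log2 fold change was -0.03 (SE 0.06, edgeR adjusted p = 0.789), the single negative value of the set, and it was 0.00 with libraries scaled by size alone or in the FPKM fits, on the other side of 0.

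KLF11 (ENSG00000172059.11, chromosome 2, 10042849 to 10054836, plus strand), the close relative of KLF10 that TGF-beta also induces, was at 18.87, 16.99 and 18.18 CPM with SRPK2 and at 17.75, 17.31 and 17.95 CPM with the empty vector. KLF13 (ENSG00000169926.11, chromosome 15, 31326855 to 31435665, plus strand), known as an activator of CCL5 in T lymphocytes, was at 30.9, 27.5 and 31.5 CPM with SRPK2 and at 30.2, 26.8 and 29.2 CPM with the empty vector. Their log2 fold changes were 0.03 (SE 0.06, edgeR adjusted p = 0.856) and 0.06 (SE 0.07, edgeR adjusted p = 0.683). In both genes the groups overlapped. Within the SRPK2 group 7 of the 10 members (KLF3, KLF4, KLF5, KLF9, KLF10, KLF11 and KLF13) were lowest in replicate 2, while KLF7 was highest there. Within the empty-vector group 8 of the 10 were lowest in replicate 2, all but KLF2 and KLF6. The share of all tested genes lowest in replicate 2 was not computed, so neither count is read as a trait of the members.

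The 3′ UTRs of the members were searched for ATTTA, the AU-rich pentamer known from short-lived early response mRNAs. In GENCODE 29 (the transcript with the longest coding sequence of each gene) the 3′ UTRs of the members had a median of 2757 bases, against 1241 over 11141 tested coding genes with at least 200 such bases. ATTTA occurred 3 or more times in 9 of the 10 members, against 46.2% of those genes, and longer UTRs hold more by length alone. Per kilobase the members' median was 2.37, against 1.81 over all, and 8 of the 10 were above the latter. KLF2 had 3.55 per kilobase, the highest of the members, and KLF13 had 0.89, the lowest. KLF4 was the member with fewer than 3 copies, with 2 in 902 bases (2.22 per kilobase), and its 3′ UTR and that of KLF2, with 846 bases, were shorter than the median over all. KLF7 had the longest 3′ UTR, with 7079 bases and 20 copies.

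Of the other KLF and SP family genes, 17 were listed, 14 had a row and 12 were tested. Of these 12, 0 passed in either direction, where 0.454% of all tested genes did. Their log2 fold changes lay between -0.39 and 0.47, with a median of 0.05. Of the 12, 8 were above 0, where 51.2% of tested genes were. For 2 every SRPK2 library was above every empty-vector library, and for 3 every one was below. Over all tested genes these shares were 11.5% and 8.69%, and nothing is read from these counts. SP3 and SP1, widely expressed activators that bind the same GC boxes, were the most abundant. SP3 averaged 83.1 ± 2.38 CPM with SRPK2 and 80.4 ± 3.50 CPM with the empty vector (SD, n = 3 each), and its log2 fold change was 0.05 (SE 0.05, edgeR adjusted p = 0.650). SP1 averaged 64.7 ± 2.76 CPM with SRPK2 and 59.7 ± 0.84 CPM with the empty vector (SD, n = 3 each), and its log2 fold change was 0.12 (SE 0.05, edgeR adjusted p = 0.275). KLF1, the erythroid factor, had at most 1 read in a library.

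**Figure D3:**
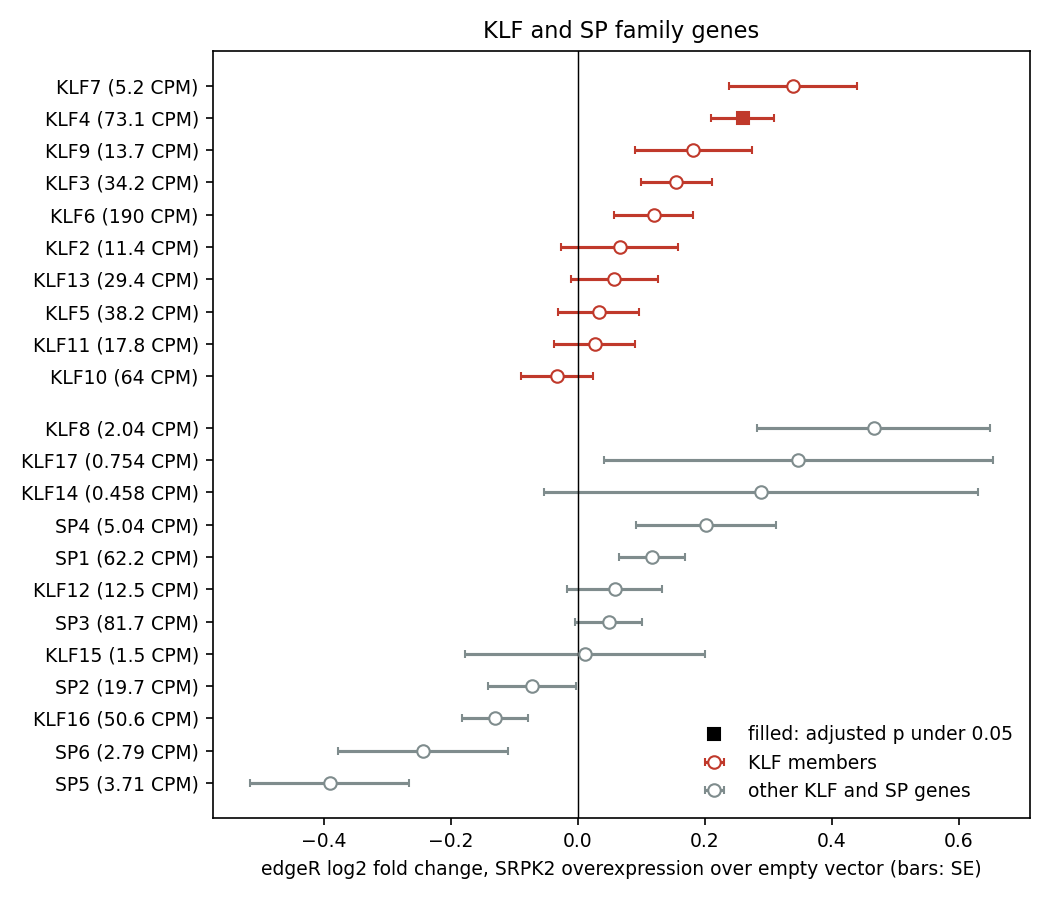
edgeR log2 fold changes (SRPK2 over empty vector) with SE for the 10 KLF members, above, and 12 other tested KLF and SP genes, below, with mean CPM beside each name. KLF4 is the filled square, the single gene with an adjusted p under 0.05; the widest bars belong to genes under 1 CPM.

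Genes that act on or with KLF proteins, or upstream of KLF genes, showed 0 calls in 5 lists, where 0.454% of all tested genes were called. At that share nothing is read from 0 calls in lists this short. In each of the 5 lists some genes passed with the replicate number as a block, as 3899 of 16515 tested genes did. Ubiquitin ligases and other regulators of KLF stability had 0 of 10 past the threshold, with log2 fold changes between -0.21 and 0.10 and a median of 0.04. The most abundant, ITCH and SMURF2, averaged 236 and 222 CPM with SRPK2 and 241 and 216 CPM with the empty vector. Of the corepressors and coactivators 0 of 11 passed, with a range of -0.11 to 0.16 and a median of 0.03. The histone deacetylase genes HDAC1 and HDAC2 averaged 184 and 173 CPM with SRPK2 and 184 and 178 CPM with the empty vector.

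Signals upstream of KLF genes were followed as well. Of the MEK5, ERK5 and MEF2 genes, the route that induces KLF2 and KLF4 in endothelium, 0 of 5 passed. All 5 values were above 0 (median 0.07), where 51.2% of all tested genes were, and nothing is read from 5 genes. MEF2D and MEF2A, the most abundant of them, averaged 44.1 and 35.7 CPM with SRPK2 and 41.9 and 31.4 CPM with the empty vector. TGF-beta receptors and SMADs had 0 of 6 past the threshold and a median of 0.04. TGFBR2 and SMAD3 averaged 194 and 156 CPM with SRPK2 and 184 and 145 CPM with the empty vector. The glucocorticoid receptor and its targets had 0 of 7 past the threshold and a median of -0.05. ERRFI1, a feedback inhibitor of EGF receptor signalling, and the receptor gene NR3C1 averaged 373 and 112 CPM with SRPK2 and 387 and 103 CPM with the empty vector.

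Of 22 genes known as KLF targets, 20 were tested, 2 rose and 0 fell, where 0.381% and 0.0727% of all tested genes did. The median was 0.01 and 11 of the 20 values were above 0, where 51.2% of tested genes were. For 5 of the 20 every SRPK2 library was above every empty-vector library, and for 2 every one was below. Over all tested genes these shares were 11.5% and 8.69%. The list was drawn up with earlier results of these data known, so nothing is read from these counts. TNFAIP2, a KLF5 target in breast cancer cells, was at 63.7, 56.0 and 61.9 CPM with SRPK2 and at 49.2, 47.1 and 49.5 CPM with the empty vector (log2 fold change 0.32, SE 0.06, edgeR adjusted p = 0.0383). CCL5, the chemokine gene that KLF13 activates in T lymphocytes, was at 4.15, 5.03 and 4.02 CPM with SRPK2 and at 3.07, 2.37 and 2.57 CPM with the empty vector (log2 fold change 0.72, SE 0.14, edgeR adjusted p = 0.0490). For both genes every SRPK2 library was above every empty-vector library, as for 11.5% of all tested genes. The groups of KLF5 and KLF13 themselves overlapped, and the part of these factors in the 2 differences was not tested. Leaving out any library but SRPK2 replicate 2 ended both calls, with an edgeR adjusted p of 0.102 to 0.208 for TNFAIP2 and 0.0508 to 0.135 for CCL5. TNFAIP2 also missed it in the limma fits on FPKM (adjusted p 0.0953 to 0.293). The call of CCL5 also ended under RLE scaling (edgeR adjusted p = 0.0513), in limma-voom (adjusted p = 0.0582) and in limma on FPKM with no filter (adjusted p = 0.249). Both genes are also known targets of inflammatory signalling, whose part was not tested either.

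**Figure D4:**
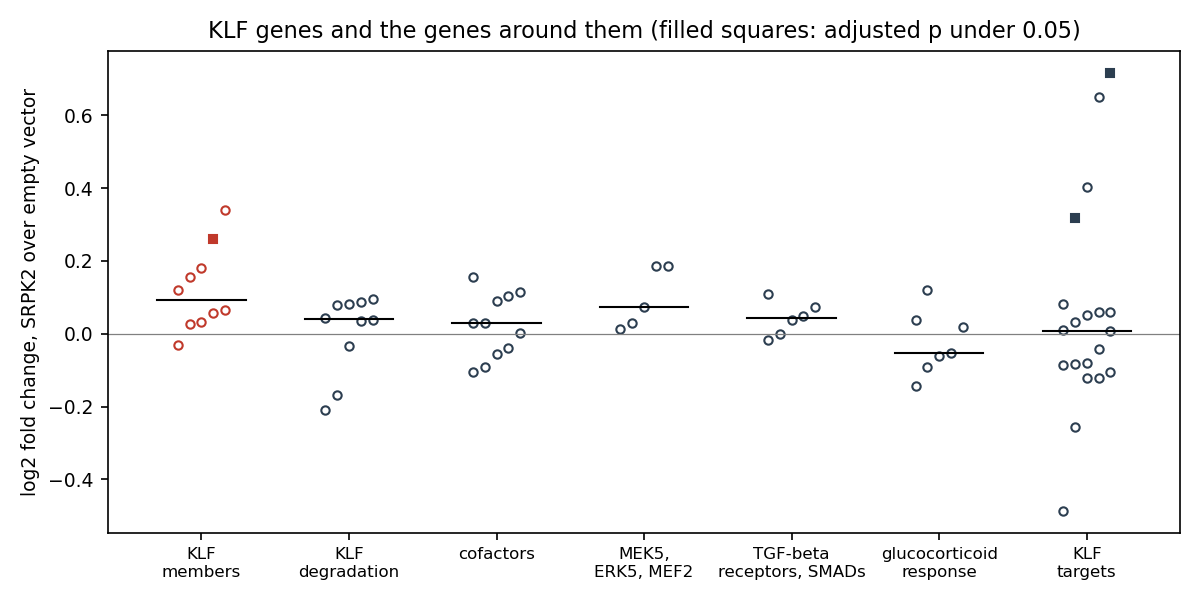
edgeR log2 fold changes (SRPK2 over empty vector) of the KLF members and of 6 lists of genes that act on, with or under them; each point is a gene and each line the list's median. Filled squares, with an adjusted p under 0.05, are KLF4 among the members and TNFAIP2 and CCL5 among the targets.

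The genes whose levels followed KLF4 most closely over the libraries included OAS3 and MX1, which interferon induces. Genes averaging 3 or more in log2 CPM were compared, 10196 in all, and the 5 with the highest Pearson correlation to KLF4 over the 6 libraries were OAS3, SH2D3A, MX1, SYDE1 and STING1, with r from 0.992 to 0.999. The points share the group difference and the library scaling, and the values are given as a description. OAS3 and MX1, antiviral effectors, rose with SRPK2 by 0.43 (SE 0.06, edgeR adjusted p = 0.00441) and 0.52 (SE 0.07, edgeR adjusted p = 0.00357) on the log2 scale. STING1, the adaptor of cytosolic DNA sensing, rose by 0.31 (SE 0.06, edgeR adjusted p = 0.0328). SH2D3A and SYDE1 had 0.27 and 0.14 (edgeR adjusted p = 0.131 and 0.196). The call of STING1 ended without any of the libraries but SRPK2 replicate 2 (edgeR adjusted p = 0.0741 to 0.170). In limma fits on FPKM, OAS3 missed it in each (adjusted p 0.0650 to 0.238), and MX1 and STING1 did where no filter was used (adjusted p = 0.211 and 0.170).

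KLF2 and KLF4 are abundant in endothelium and KLF4 and KLF6 in fibroblasts, and marker genes of these cells were low in all libraries. The 5 endothelial markers summed to 6.55 to 8.27 CPM with SRPK2 and 6.77 to 7.95 CPM with the empty vector, over 4 with a row, and VWF had at most 3 reads. The 5 leukocyte markers summed to 3.70 to 4.38 CPM with SRPK2 and 4.04 to 4.74 CPM with the empty vector, over 3 with a row, nearly all of it CD68. Luminal markers summed to 16.0 to 17.2 CPM with SRPK2 and 15.6 to 16.8 CPM with the empty vector, nearly all of it GATA3. The 5 fibroblast markers summed to 10.7 to 11.0 CPM with SRPK2 and 7.65 to 8.72 CPM with the empty vector, without overlap. Of the 4 tested, 0 passed, where 0.454% of all tested genes did. LUM, COL1A1 and PDGFRB were higher in every SRPK2 library than in every empty-vector library, as 11.5% of all tested genes were. DCN averaged 0.36 CPM with SRPK2 and 0.35 CPM with the empty vector, and THY1 had at most 1 read. The part of these markers in the KLF values was not tested.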

How the data were processed

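RNA sequencing data of 6 MDA-MB-231 libraries were used, 3 with SRPK2 and 3 with the empty vector, grouped by their titles. The submitters' processing notes name bcl2fastq, FastQC, HISAT2 and GRCh38, without versions or roles. Which counter, strand setting and annotation release the authors used is stated in no source at hand, so overlapping genes are uncertain, and reads shared with processed copies such as KLF4P1 were not analysed here. The authors deposited whole-number counts per gene (29710 genes) and FPKM values per gene (29256 genes), rounded to 2 decimals.

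The KLF members and all gene lists were chosen with earlier results of these data known. Counts were fitted with edgeR 4.0.16 in R 4.3.3 (TMM, filterByExpr, glmQLFit and glmQLFTest, two-sided, group as the only term, Benjamini-Hochberg over 16515 genes, threshold 0.05). SEs are the absolute log2 fold change over the root of F. The 16515 genes held 99.9% of the reads, and the biological coefficient of variation was 5.85%. Replicates differed by more than sampling noise (chi-square per degree of freedom 4.78 to 16.7). List genes are named where called, or otherwise the 2 most abundant of each list. KLF16, KLF1 and several cell type markers are named outside this rule. Alternatives were other scalings and filters, DESeq2 1.42.0, limma 3.58.1 (voom, or log2 of FPKM plus 1 or 0.1), replicate number as a block, gene length correction by loess (span 0.3, 15809 genes) and each library left out. The test was run on simulated counts, where most genes changed 1.25-fold were not called and 12 unchanged genes were called. The simulated libraries held no effect of the replicate number. Coordinates and UTRs are from GENCODE 29 (28804 identifiers matched without version), promoter windows from RefSeq. Figures used Python 3.11.15 and matplotlib 3.10.9.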

Additional observations from a re-analysis of the deposited data

How the results depend on the processing

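KLF4 kept a positive estimate under each of the 18 alternatives, and lost its call under those named above. The number of the 10 members called was 1 in the edgeR fit with all libraries, 0 with RLE size factors and 0 in each of the 3 limma fits on FPKM. It was 0 to 1 when single libraries were left out. It was 1, KLF4, with library size alone, no filter, a mean CPM of at least 5 or the gene length correction. KLF4 was also the 1 member called in DESeq2 (adjusted p = 0.0148) and limma-voom (adjusted p = 0.0418). SRPK2 stayed past the threshold throughout, with log2 fold changes of 2.53 to 2.81. The number of all genes called was 75 (63 higher and 12 lower), 101 (74 higher and 27 lower) with the gene length correction, and it was 997 (390 higher and 607 lower) with no filter on low counts, 132 (86 higher and 46 lower) in DESeq2, 18 (13 higher and 5 lower) in limma on log2(FPKM + 1) with no filter, and 27 to 1403 when single libraries were left out, the highest without SRPK2 replicate 2 (551 higher and 852 lower). The cause of these shifts in the counts was not tested. Signs near 0 turned in 4 members, with no call on either side. With single libraries left out, KLF10 ranged from -0.075 to 0.011, KLF2 from -0.038 to 0.146, KLF5 from -0.030 to 0.081 and KLF11 from -0.011 to 0.067, with the negative values of KLF2 and KLF11 without SRPK2 replicate 1 and that of KLF5 without SRPK2 replicate 3. KLF10 had 0.0040 with library size alone, 0.0026 in limma on log2(FPKM + 1) with and without a filter and 0.0026 in limma on log2(FPKM + 0.1).

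With the replicate number as a block, 3899 of 16515 tested genes were called (1753 higher and 2146 lower). Of the 10 members, 5 were called (KLF3, KLF4, KLF6, KLF7 and KLF9), with an edgeR adjusted p of 4.5e-07 for KLF4. When the gene length correction was combined with the block, 3361 of 15809 tested genes were called (1099 higher and 2262 lower). Of the 10 members, 3 were then called (KLF4, KLF6 and KLF7), with an edgeR adjusted p of 9.9e-08 for KLF4. The members were chosen on this comparison, so nothing is read from their counts against those of all genes. The labels do not say that a number marks a shared batch. Deviations from the group means correlated at 0.084, 0.230 and 0.171 for numbers 1, 2 and 3, and every library correlated best with its own number. The main fit did not take the numbers as pairs, and whether they mark shared batches cannot be told from these values. KLF7 had the fewest reads of the members, 142 to 227 a library. KLF2 and KLF9, with more reads, had SEs of 0.09 against its 0.10.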
